A study of Ovis aries with 49 samples.

Results

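The genes described here are ACADVL, ACAA2, DECR1, ETFB and ACAT1, which encode mitochondrial proteins of fatty acid oxidation and, for ACAT1, of ketone body and isoleucine metabolism. They were chosen by gene symbol, and each had 1 probe set in the table (200710_at, 202003_s_at, 202447_at, 202942_at and 205412_at), so that they make up 5 of the 9780 genes with a single symbol among 10273 probe sets. No filter was applied, and all 5 were tested in every comparison.

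Adipose tissue of lambs was sampled at 7 and 28 days of age from the epicardial, omental, perirenal, sternal and subcutaneous depots, and its RNA was hybridised to arrays that carry probes for human transcripts. Of the 49 arrays, 24 came from the younger and 25 from the older lambs, which makes 5 per depot and age, but 4 for subcutaneous fat at 7 days. Twins of the same sex were split between the ages, and the depots of 1 age were dissected from the same lambs, but the number that ends each title and recurs across depots is not defined there as an animal. Each depot and age was therefore 1 group, and p-values measure the spread between these arrays. The ages are those of the age field and the titles, but the description shared by all arrays names an older range, and every change with age given here rests on the age field. The maternal diet of the groups is not stated in the labels, whose titles share a letter C without explanation. The study extracted RNA from less tissue at 7 days than at 28 days, so the amount of tissue and age cannot be told apart.

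In mitochondrial beta-oxidation an activated fatty acid is shortened step by step, and each round releases acetyl-CoA and passes electrons to the respiratory chain. Brown adipocytes burn fatty acids in this way to make heat through the uncoupling protein UCP1, whereas white adipocytes mostly store them. In newborn lambs much of the brown fat, above all that around the kidney, takes on the look of white fat in the weeks after birth.

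All values are the deposited log2 signals, which run from 2.49 to 14.04 in the table, and 82.7% of them lie below 4. Averaged over the 49 arrays, DECR1 read 6.65, ACAT1 5.18, ACADVL 4.94, ETFB 3.50 and ACAA2 2.71. These averages belong to different probe sets and do not rank the genes. ACAA2 lay near the lowest signal of the table, where poor binding of sheep RNA to a human probe set and low expression cannot be told apart. Many arrays also shared almost the same value of a gene. Within a tolerance of 0.01, 19 arrays held 2.61 for ACAA2, 18 held 3.40 for ETFB, 13 held 5.13 for ACAT1, 9 held 4.87 for ACADVL and 6 held 6.67 for DECR1, and 8941 of the 10273 probe sets had 10 or more arrays at a common value. In whole tissue, fewer cells of a type and less RNA per cell cannot be told apart.

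Some arrays carried RNA of muscle. CKM, the creatine kinase of muscle, lay above 4 in 9 of the 19 arrays from sternal or subcutaneous fat, which are called CKM-positive here. Single arrays are named by their titles. At 7 days these were the sternal array St_C_1W_79_117 (8.29) and the subcutaneous arrays Su_C_1W_108_105 (12.9), Su_C_1W_111_130 (11.7) and Su_C_1W_114_122 (6.35). At 28 days they were the sternal arrays St_C_4W_42_146 (12.7), St_C_4W_45_159 (11.3) and St_C_4W_44_155 (4.51) and the subcutaneous arrays Su_C_4W_23_146 (7.11) and Su_C_4W_24_153 (4.11). CKM was at or below 3.13 in every omental and perirenal array. It lay above 4 in all epicardial arrays except EpC_C_4W_01_141 of 28 days, which read 2.76 and held the cardiac myosin gene MYH7 at the lowest value of the table, 2.49. The summed signal of the 17 measured skeletal muscle genes ran from 45.7 to 68.3 in sternal fat at 7 days, 46.0 to 113.96 in sternal fat at 28 days, 47.4 to 121.5 in subcutaneous fat at 7 days and 46.7 to 63.9 in subcutaneous fat at 28 days, against 45.3 to 47.8 over all omental and perirenal arrays. Of 8 measured adipocyte genes, 7 averaged below 3, among them FABP4 at 2.65 and LPL at 2.88, so the labelled tissue could not be checked from them. The 8 measured brown adipocyte genes summed to 28.5 to 32.3 in perirenal fat at 7 days, 26.9 to 28.2 in sternal, 26.6 to 29.1 in epicardial, 22.01 to 25.7 in omental and 23.6 to 24.8 in subcutaneous fat. Of these 8 genes, which include UCP1 and PPARGC1A, 5 averaged below 3 and 1 at least 4, so the sums rest on few genes. UCP1 itself was at 5.51 to 8.22 in perirenal, 3.52 to 5.51 in sternal, 3.34 to 5.32 in epicardial, 2.91 to 5.13 in omental and 2.49 to 2.99 in subcutaneous fat at 7 days, and at or below 2.999 in every array at 28 days.

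Other marker lists differed between some groups as well. The 6 measured endothelial genes, none above 4 in any array, summed at 7 days to 16.5 to 17.3 in perirenal fat and to 15.4 to 16.2 in the other depots. The 4 measured mesothelial genes summed to 13.6 to 15.1 in epicardial and 13.7 to 16.5 in omental fat at 28 days. Over the other groups they summed to 10.3 to 14.8, which overlaps, with 14.8 reached in omental fat at 7 days. No macrophage or lymphocyte gene lay above 4 in any array. The 10 fibroblast and matrix genes are given beside the comparisons in which they moved.

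**Figure D1:**
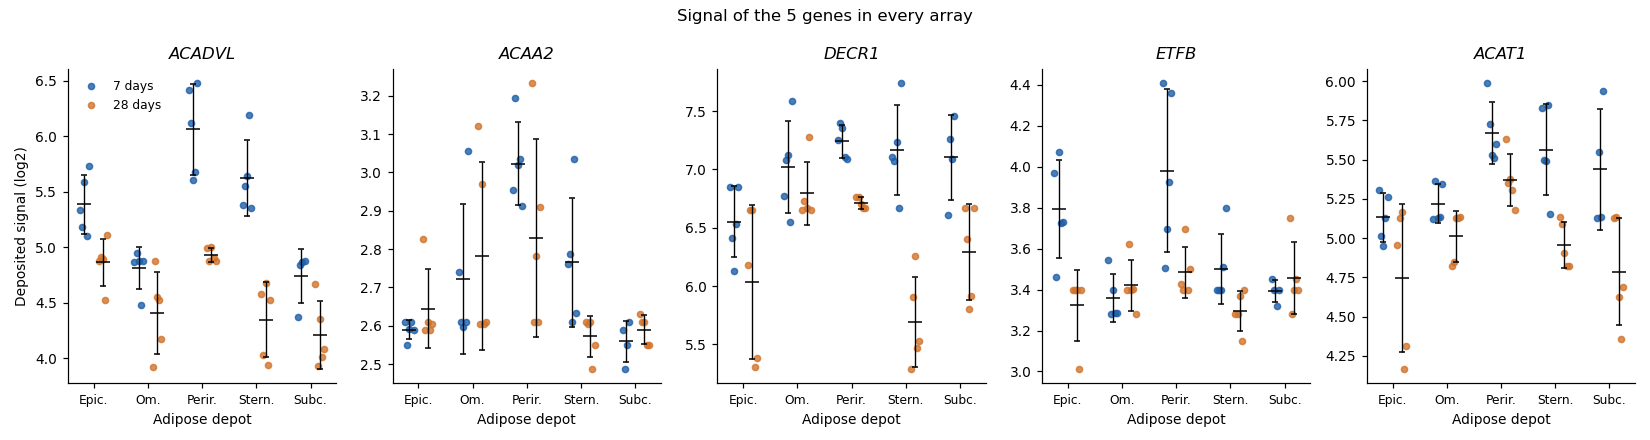
Deposited log2 signal of each gene in every array, by adipose depot (horizontal axis, from left to right epicardial, omental, perirenal, sternal and subcutaneous) and age (blue points 7 days, orange points 28 days), with the group mean and SD in black (n = 5, and 4 for subcutaneous fat at 7 days). ACADVL spans 5.60 to 6.48 in perirenal fat at 7 days and 4.88 to 5.01 at 28 days, and the vertical axes differ between genes.

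At 7 days of age the mean of each of the 5 genes was highest in perirenal fat, although for ACAT1 and DECR1 sternal fat came out above it after quantile normalization or centring. By the test 3 of the 5 genes differed between depots, in an F test over the 5 depots (called at an adjusted p, by Benjamini and Hochberg, up to 0.05), where 8.16% of all probe sets did. They were ACADVL (adjusted p = 0.00022), ACAA2 (0.00467) and ETFB (0.0199), while ACAT1 (0.0665) and DECR1 (0.138) did not pass. DECR1 did pass with the number that ends each title as a fixed block, as given in the last section. With the CKM-positive arrays left out the adjusted p was 0.0793 for ETFB and 0.0265 for ACAT1. After quantile normalization ETFB was at 0.176 and ACAT1 at 0.0186. Leaving out St_C_1W_84_122, Su_C_1W_108_105 or Su_C_1W_114_122 also brought ACAT1 to at most 0.05, over a range of 0.025 to 0.132. After centring each array on its mean over probe sets averaging at least 4, all 5 genes passed, with DECR1 at 0.0342. Centring raised the calls over all probe sets in some pairs, as from 404 to 3688 between epicardial and sternal fat. Between perirenal and omental fat they went from 514 to 508. A pass after centring therefore cannot be set beside the 8.16% above. As deposited, a fit of only the probe sets averaging at least 4 at 7 days called 689 of 1700. ETFB and ACAA2 were not among these probe sets.

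ACADVL encodes very long-chain acyl-CoA dehydrogenase, which carries out the first step of the oxidation of long-chain fatty acids. At 7 days its signal was 5.60, 5.68, 6.12, 6.42 and 6.48 in perirenal fat. Sternal arrays read 5.36, 5.38, 5.55, 5.64 and 6.19, and epicardial arrays 5.10, 5.18, 5.33, 5.59 and 5.73. Omental arrays read 4.48, 4.87, 4.88, 4.88 and 4.95, and subcutaneous arrays 4.37, 4.84, 4.87 and 4.88. Every perirenal, sternal and epicardial array lay above every omental and subcutaneous array, while the perirenal range met the sternal and the epicardial one.

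Perirenal exceeded omental fat in ACADVL by 1.25 ± 0.18 (SE, adjusted p = 0.000313) and subcutaneous fat by 1.32 ± 0.19 (adjusted p = 0.000329). In sternal fat ACADVL was 0.81 ± 0.18 above omental fat (adjusted p = 0.034) and 0.88 ± 0.19 above subcutaneous fat (adjusted p = 0.0233). Against the background of all probe sets, those higher in sternal than in omental fat made up 0.234% and those higher in sternal than in subcutaneous fat 0.419%, and ACADVL was the only one of the 5 genes among each. Of the 1700 probe sets averaging at least 4 at 7 days, fitted alone, 63 and 81 were called higher in these pairs. The ordering of neighbouring depots was not separated by the test, since perirenal minus sternal fat was 0.44 (95% interval 0.06 to 0.82, adjusted p = 0.259), perirenal minus epicardial fat 0.67 (0.29 to 1.05, adjusted p = 0.0546) and epicardial minus sternal fat -0.24 (-0.62 to 0.14, adjusted p = 0.616). Between subcutaneous and omental fat 0.204% of probe sets were called and none of the 5 genes, also at an unadjusted p under 0.05.

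Whether the sternal differences in ACADVL were called depended on single arrays. The differences themselves stayed at 0.67 to 0.88 from omental and 0.74 to 0.95 from subcutaneous fat with any single array left out. That from omental fat missed the threshold without any of the sternal arrays St_C_1W_82_109, St_C_1W_80_126 and St_C_1W_81_130 or the omental arrays OM_C_1W_93_105, OM_C_1W_98_115, OM_C_1W_99_122 and OM_C_1W_96_130 (adjusted p up to 0.104), and that from subcutaneous fat without St_C_1W_82_109, St_C_1W_81_130 or Su_C_1W_108_105 (up to 0.0753). Removal of the CKM-positive arrays, which left 1 subcutaneous array at 7 days whose spread was taken from the other groups, gave differences of 0.88 (adjusted p = 0.0661) and 0.84 (0.359), and in fits of the 2 depots alone the adjusted p was 0.139 and 0.233. ACADVL in perirenal minus omental fat stayed at or below an adjusted p of 0.00167 over all single arrays left out, and perirenal minus subcutaneous fat at or below 0.00201.

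ACAA2 encodes the thiolase that releases acetyl-CoA at the end of each round of beta-oxidation. Its signal at 7 days was 2.91, 2.95, 3.02, 3.04 and 3.19 in perirenal fat. Epicardial arrays read 2.55, 2.59, 2.59, 2.61 and 2.61, and subcutaneous arrays 2.49, 2.55, 2.59 and 2.61. Omental arrays read 2.60, 2.61, 2.61, 2.74 and 3.06, and sternal arrays 2.61, 2.63, 2.76, 2.79 and 3.03. All perirenal arrays lay above all epicardial and subcutaneous ones, and the highest omental and the highest sternal array reached into the perirenal range.

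Perirenal minus epicardial fat was 0.43 ± 0.08 for ACAA2 (adjusted p = 0.00338), in a comparison in which 1.13% of all probe sets were called higher in perirenal fat and ACAA2 alone of the 5 genes. For DECR1 (0.69, 95% interval 0.27 to 1.10, adjusted p = 0.0776) and ACAT1 (0.54, 0.24 to 0.84, adjusted p = 0.0535) every perirenal array lay above every epicardial array in the same comparison without a call. For how many of all probe sets the arrays of a pair separate in this way was not counted, here or elsewhere. Perirenal minus subcutaneous fat was 0.46 ± 0.09 for ACAA2 (adjusted p = 0.00285, and 0.0735 without the CKM-positive arrays). Perirenal minus omental fat was 0.30 ± 0.08 for ACAA2 (adjusted p = 0.0346). This last call ended without any of 4 omental arrays (OM_C_1W_93_105, OM_C_1W_98_115, OM_C_1W_94_117 and OM_C_1W_96_130) or 3 perirenal arrays (PrR_C_1W_66_109, PrR_C_1W_64_117 and PrR_C_1W_65_130), with an adjusted p up to 0.0943. It also ended after quantile normalization (0.262), after centring (0.227), without the CKM-positive arrays (0.0675) and in a fit of the 2 depots alone (0.156).

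ETFB encodes a subunit of the electron transfer flavoprotein, which takes electrons from the acyl-CoA dehydrogenases. Its signal at 7 days was 3.51, 3.70, 3.93, 4.36 and 4.41 in perirenal fat and 3.46, 3.73, 3.73, 3.97 and 4.07 in epicardial fat. Omental arrays read 3.28, 3.28, 3.28, 3.40 and 3.55, subcutaneous arrays 3.32, 3.40, 3.40 and 3.45, and sternal arrays 3.40, 3.40, 3.40, 3.51 and 3.80. The perirenal range lay above the subcutaneous one and met the others. Perirenal minus omental fat was 0.62 ± 0.14 (adjusted p = 0.0138) and perirenal minus subcutaneous fat 0.59 ± 0.15 (adjusted p = 0.0305) for ETFB. With ACADVL and ACAA2 this made 3 of the 5 genes higher in perirenal than in omental fat, where 4.23% of all probe sets were, and 3 of 5 higher than in subcutaneous fat, where 3.18% were. Of the 1700 probe sets averaging at least 4 at 7 days, fitted alone, 256 and 210 were called higher. These 1700 hold ACADVL but not ETFB or ACAA2.

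For ETFB both differences missed the threshold after quantile normalization, at 0.43 each (adjusted p = 0.107 and 0.123), and in fits of the 2 depots alone (0.118 and 0.219). The difference from subcutaneous fat also ended without the CKM-positive arrays (adjusted p = 0.446), and without perirenal array PrR_C_1W_63_105 or PrR_C_1W_67_115 or any single subcutaneous array (up to 0.0791).

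DECR1 encodes the reductase that prepares polyunsaturated fatty acids for beta-oxidation, and ACAT1 the mitochondrial thiolase of ketone body and isoleucine metabolism. At 7 days DECR1 ranged from 7.09 to 7.40 in perirenal, 6.67 to 7.74 in sternal, 6.61 to 7.46 in subcutaneous, 6.55 to 7.59 in omental and 6.13 to 6.85 in epicardial fat. ACAT1 ranged from 5.51 to 5.99 in perirenal, 5.15 to 5.85 in sternal, 5.13 to 5.94 in subcutaneous, 5.12 to 5.36 in omental and 4.95 to 5.31 in epicardial fat. Neither passed in any pair of depots, although DECR1 in perirenal minus epicardial fat did with the number that ends each title as a fixed block. Perirenal minus sternal fat was 0.08 for DECR1 (95% interval -0.34 to 0.49) and 0.11 for ACAT1 (-0.20 to 0.41), and both turned below 0 after quantile normalization or centring. Perirenal arrays of ACAT1 all lay above the omental arrays (0.45, 95% interval 0.15 to 0.76, adjusted p = 0.0777).

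The other pairs at 7 days had no called member by limma. Perirenal against sternal fat had 1.85% of probe sets called in either direction and 3 of the 5 genes at an unadjusted p under 0.05, namely ACADVL, ACAA2 (0.26, 95% interval 0.09 to 0.43, adjusted p = 0.124) and ETFB (0.48, 0.18 to 0.78, adjusted p = 0.0939). Epicardial fat against omental, sternal and subcutaneous fat had 4.18%, 3.93% and 2.42% called, and 3 of the 5 genes at an unadjusted p under 0.05 in each. Epicardial arrays all lay above the omental and the subcutaneous arrays in ACADVL, by 0.58 (95% interval 0.20 to 0.96, adjusted p = 0.0833) and 0.65 (0.24 to 1.05, adjusted p = 0.092), and above the subcutaneous arrays in ETFB, by 0.40 (0.08 to 0.71, adjusted p = 0.201). Epicardial minus sternal fat was below 0 for DECR1 (-0.61, 95% interval -1.03 to -0.20, adjusted p = 0.103), ACAT1 (-0.43, -0.74 to -0.13, adjusted p = 0.119) and ACAA2 (-0.18, -0.35 to -0.01, adjusted p = 0.308), and 0.29 for ETFB (-0.01 to 0.59, adjusted p = 0.342).

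Markers of other cell types differed between the same depots. The 10 fibroblast and matrix genes, all of them measured and 7 with a mean of at least 4, summed at 7 days to 52.4 to 59.7 in perirenal, 53.8 to 59.4 in sternal and 56.7 to 60.4 in epicardial fat, against 61.4 to 66.5 in omental and 61.9 to 67.4 in subcutaneous fat. Every perirenal, sternal and epicardial array thus lay below every omental and subcutaneous array, whereas in ACADVL each lay above them. The part of brown adipocyte, muscle, endothelial, fibroblast and matrix RNA in these depot differences was not tested.

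**Figure D2:**
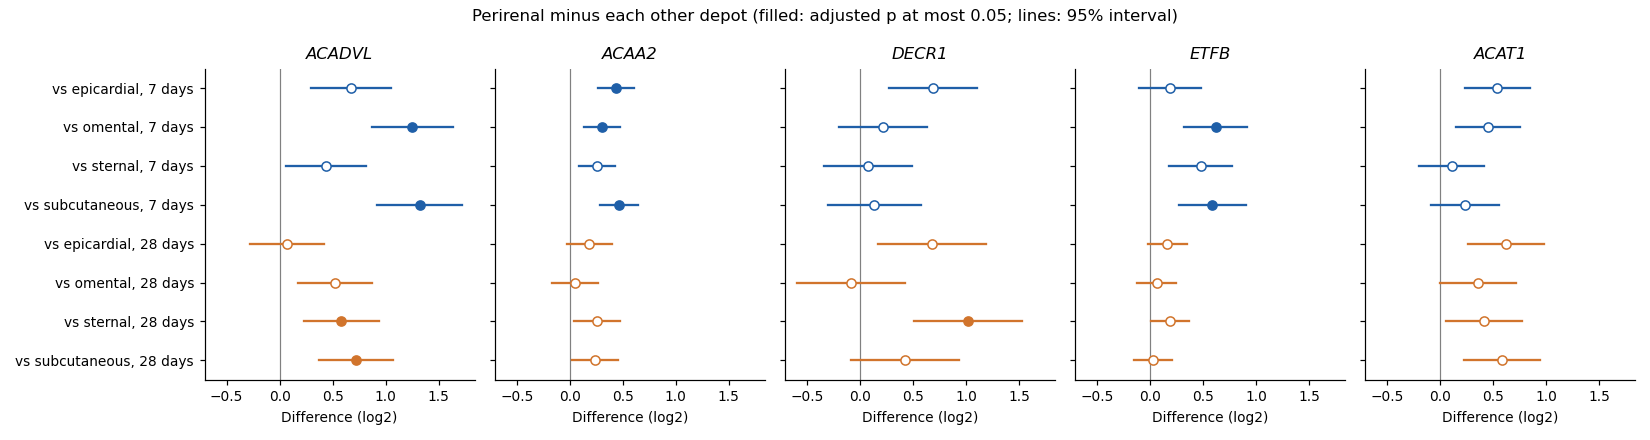
Log2 difference of perirenal minus each other depot for each gene, at 7 days (blue) and 28 days (orange), from limma fits with 95% intervals. Filled points have an adjusted p of at most 0.05, and for ACADVL the differences from omental and subcutaneous fat are 1.25 and 1.32 at 7 days and 0.52 and 0.72 at 28 days.

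At 28 days of age 2 of the 5 genes differed between depots by the F test, ACADVL (adjusted p = 0.00684) and DECR1 (0.00784), where 20.0% of all probe sets did, so a call was more common among all genes than at 7 days. ACAT1 (0.0603), ACAA2 (0.205) and ETFB (0.354) did not pass, although ACAT1 did with the number that ends each title as a fixed block. ACAT1 moved to 0.00673 after quantile normalization, and it also passed without epicardial array EpC_C_4W_02_146 or EpC_C_4W_03_151 or subcutaneous array Su_C_4W_21_136 or Su_C_4W_22_141 (down to 0.0306). All 5 genes passed after centring, which gave a lower adjusted p to ACAA2 (0.0454) and ETFB (0.0164). Centring also added many calls over all probe sets between sternal fat and other depots, as counted at the end of the text. These passes therefore cannot be set beside the 20.0% above. As deposited, a fit of only the probe sets averaging at least 4 at 28 days called 1225 of 1829. DECR1 was at 0.0786 once the CKM-positive arrays were left out. Sternal arrays were low over the whole table at this age, with a mean over all probe sets of 3.27, against 3.40 to 3.42 in the other depots.

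ACADVL read 4.88, 4.88, 4.90, 5.00 and 5.01 in perirenal fat at 28 days. Epicardial arrays read 4.52, 4.88, 4.90, 4.91 and 5.11, and omental arrays 3.93, 4.17, 4.52, 4.55 and 4.88. Sternal arrays read 3.94, 4.03, 4.52, 4.58 and 4.68, and subcutaneous arrays 3.93, 4.01, 4.08, 4.35 and 4.67. The perirenal arrays lay within 0.13 of each other and above every sternal and subcutaneous array, and the lowest epicardial array met the highest sternal and subcutaneous ones.

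Perirenal exceeded subcutaneous fat in ACADVL by 0.72 ± 0.17 (adjusted p = 0.0211), and 1.46% of all probe sets were called in that direction. Epicardial exceeded subcutaneous fat by 0.65 ± 0.17 (adjusted p = 0.0339), where 1.55% were called. Both calls included no other of the 5 genes. ACADVL was also higher in perirenal than in sternal fat, by 0.58 ± 0.17 (adjusted p = 0.0237), and in epicardial than in sternal fat, by 0.51 ± 0.17 (adjusted p = 0.0494), but these comparisons called 12.9% and 11.6% of all probe sets in the same direction.

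Each of these ACADVL calls ended under some alternative. When the CKM-positive arrays were left out the differences from subcutaneous fat were 0.70 (adjusted p = 0.0789) and 0.63 (0.0949), and those from sternal fat 0.30 (0.471) and 0.24 (0.613). After quantile normalization the differences from sternal fat were 0.17 (0.63) and 0.07 (0.876), and after centring 0.23 (0.227) and 0.15 (0.43). Epicardial minus subcutaneous fat was at 0.0528 after quantile normalization, and in fits of the 2 depots alone the epicardial differences were at 0.122 and 0.126.

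Single arrays also decided these ACADVL calls. Perirenal minus subcutaneous fat missed the threshold without perirenal array PrR_C_4W_33_153 or subcutaneous array Su_C_4W_24_153 (adjusted p up to 0.0605), and perirenal minus sternal fat without perirenal array PrR_C_4W_33_153 or sternal array St_C_4W_42_146 or St_C_4W_44_155 (up to 0.0746). Epicardial minus subcutaneous fat missed it without epicardial array EpC_C_4W_01_141, EpC_C_4W_02_146, EpC_C_4W_03_151 or EpC_C_4W_05_159 or subcutaneous array Su_C_4W_22_141, Su_C_4W_24_153 or Su_C_4W_25_155 (up to 0.097). Epicardial minus sternal fat missed it in 18 of 25 removals (up to 0.141) and passed only without EpC_C_4W_04_155, OM_C_4W_11_141, OM_C_4W_12_146, St_C_4W_41_141, St_C_4W_43_153, Su_C_4W_21_136 or Su_C_4W_22_141.

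DECR1 at 28 days read 6.67, 6.67, 6.70, 6.76 and 6.77 in perirenal fat and 6.65, 6.65, 6.67, 6.73 and 7.28 in omental fat. Sternal arrays read 5.29, 5.47, 5.53, 5.91 and 6.26. Epicardial arrays read 5.30, 5.38, 6.18, 6.65 and 6.65, and subcutaneous arrays 5.81, 5.91, 6.40, 6.67 and 6.67. All sternal arrays lay below all perirenal and omental arrays, while the epicardial arrays split into low and high readings that covered most of the range.

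DECR1 was 1.02 ± 0.25 higher in perirenal than in sternal fat (adjusted p = 0.00725), which with ACADVL made 2 of the 5 genes. It was 1.10 lower in sternal than in omental fat (a difference of -1.10 ± 0.25, adjusted p = 0.00316), the only member among the 15.2% of probe sets called lower there. In the fit of probe sets averaging at least 4, 927 of 1829 were called lower there. Both DECR1 calls held over every single array left out. Without the CKM-positive arrays the differences were 0.94 (adjusted p = 0.0926) and -1.02 (0.0584). After quantile normalization they were 0.69 (0.0685) and -0.73 (0.0476), and after centring 0.68 (0.00903) and -0.72 (0.00545).

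ACAT1 at 28 days ranged from 5.18 to 5.63 in perirenal fat, 4.82 to 5.14 in omental, 4.82 to 5.14 in sternal, 4.36 to 5.14 in subcutaneous and 4.17 to 5.17 in epicardial fat. Every perirenal array thus lay above every array of the other depots, yet none of these differences passed the test. The gap was narrow, with the lowest perirenal array at 5.177 and the highest epicardial one at 5.165. Omental, sternal and subcutaneous arrays all ended at 5.14, close to the value that 13 arrays shared. The share of all probe sets that separate in this way was not counted. The differences were 0.62 from epicardial (95% interval 0.26 to 0.98, adjusted p = 0.0625), 0.58 from subcutaneous (0.22 to 0.94, 0.0816), 0.41 from sternal (0.05 to 0.77, 0.122) and 0.36 from omental fat (-0.00 to 0.72, 0.403). For ETFB the perirenal range of 3.40 to 3.70 met those of all other depots, and for ACAA2 the perirenal range of 2.61 to 3.23 did so too. DECR1 in perirenal minus epicardial fat was 0.68 (95% interval 0.17 to 1.19, adjusted p = 0.21), again with no overlap of the arrays.

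In the pairs with no called member at 28 days, limma called 2.16% of probe sets between perirenal and epicardial, 2.87% between perirenal and omental, 3.07% between epicardial and omental, 2.08% between subcutaneous and omental and 11.3% between sternal and subcutaneous fat. At an unadjusted p under 0.05 these held 2, 1, 2, 0 and 1 of the 5 genes. The fibroblast and matrix genes summed at this age to 53.7 to 61.9 in perirenal fat, below every array of epicardial (62.7 to 65.1), sternal (62.3 to 70.5), omental (63.8 to 69.2) and subcutaneous fat (67.2 to 72.4). The muscle and mesothelial genes given above also differed between depots, and the part of these lists in the results was not tested.

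**Figure D3:**
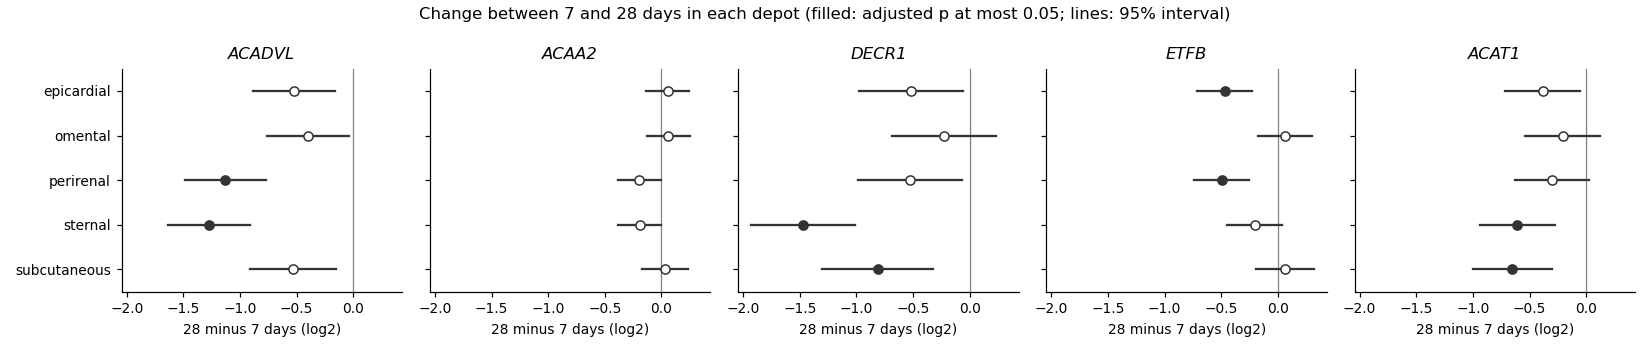
Log2 change from 7 to 28 days of each gene in each depot, from 1 limma fit over all 10 groups, with 95% intervals and points filled where the adjusted p is at most 0.05. The filled points all lie below 0 and reach -1.47 for DECR1 in sternal fat.

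Between 7 and 28 days all called changes of the 5 genes were decreases. Sternal fat had 3 of them, perirenal and subcutaneous fat 2 each, epicardial fat 1 and omental fat none. The changes came from 1 fit over all 10 groups, and arrays of the 2 ages came from different lambs. A fit of the 1752 probe sets averaging at least 4 called 383 lower in sternal, 181 in perirenal and 97 in subcutaneous fat. It called 147 lower in epicardial and 71 in omental fat. These 1752 hold ACADVL, DECR1 and ACAT1 but not ETFB or ACAA2.

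In perirenal fat ACADVL fell by 1.13 ± 0.18 on the log2 scale (adjusted p = 1.94e-05), from a mean of 6.06 ± 0.41 (SD, n = 5) to 4.93 ± 0.07. ETFB fell by 0.50 ± 0.12 (adjusted p = 0.00402), from 3.98 ± 0.40 to 3.48 ± 0.12. These were 2 of the 5 genes, where 3.09% of all probe sets were called lower at 28 days. The lowest ACADVL array at 7 days, 5.60, lay above the highest at 28 days, 5.01, whereas the lowest ETFB array at 7 days, 3.51, lay within the later range. Both calls held over every single array left out, with an adjusted p up to 0.000182 for ACADVL and 0.0326 for ETFB, and in a fit of the 2 perirenal groups alone ETFB was at 0.149. DECR1 readings at 28 days all lay below those at 7 days (a change of -0.53, 95% interval -0.99 to -0.07, adjusted p = 0.17, but 0.0498 after quantile normalization and 0.00151 in a fit of the 2 perirenal groups alone), and ACAT1 and ACAA2 changed by -0.30 (adjusted p = 0.325) and -0.19 (0.254).

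In sternal fat ACADVL fell by 1.27 ± 0.18 (adjusted p = 2.2e-06), from 5.62 ± 0.34 (SD, n = 5) to 4.35 ± 0.34. DECR1 fell by 1.47 ± 0.23 (adjusted p = 1.3e-05), from 7.16 ± 0.39 to 5.69 ± 0.39, and ACAT1 by 0.61 ± 0.16 (adjusted p = 0.0143), from 5.56 ± 0.29 to 4.95 ± 0.15. With these, 3 of the 5 genes belonged to the 3.89% of probe sets called lower. No array at 28 days reached the range at 7 days for any of these 3 genes. They had been called on the same values, and the share of all probe sets that separate in this way was not counted.

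Without the CKM-positive arrays the sternal changes were -1.06 for ACADVL (adjusted p = 0.00673) and -1.40 for DECR1 (0.0053), and no single array ended these calls. The ACAT1 change was -0.48 there (adjusted p = 0.245), and it missed the threshold without St_C_1W_82_109 or St_C_1W_79_117 of 7 days (up to 0.0551) and in a fit of the 2 sternal groups alone (0.0804). After centring, the changes were -1.21 for ACADVL, -1.41 for DECR1 and -0.55 for ACAT1, each with an adjusted p of at most 0.0195. The mean over all probe sets in sternal fat was 3.29 at 7 days and 3.27 at 28 days. ETFB changed by -0.21 (95% interval -0.45 to 0.04, adjusted p = 0.424) and ACAA2 by -0.19 (-0.38 to -0.00, adjusted p = 0.303).

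In subcutaneous fat ACAT1 fell by 0.65 ± 0.17 (adjusted p = 0.0118), from 5.44 ± 0.39 (SD, n = 4) to 4.79 ± 0.34 (n = 5), and DECR1 by 0.81 ± 0.24 (adjusted p = 0.0255), from 7.10 ± 0.36 to 6.29 ± 0.41. Here 1.57% of all probe sets were called lower. The arrays of both ages overlapped for both genes, since 5.13 and 6.61 at 7 days lay below 5.14 and 6.67 at 28 days. Without the CKM-positive arrays the changes were -0.56 for ACAT1 (adjusted p = 0.367) and -0.69 for DECR1 (0.566), with 1 array left at 7 days. In a fit of the 2 subcutaneous groups alone they were at 0.218 and 0.164. ACAT1 missed the threshold without Su_C_1W_114_122 of 7 days (adjusted p = 0.0885), and DECR1 without Su_C_1W_114_122, Su_C_1W_110_126 or Su_C_1W_111_130 of 7 days or Su_C_4W_23_146 or Su_C_4W_24_153 of 28 days (up to 0.0966). ACADVL changed by -0.53 (95% interval -0.91 to -0.15, adjusted p = 0.0691) and passed after quantile normalization (-0.77, 0.0108) and centring (-0.72, 0.00886).

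In epicardial fat only ETFB was called, and it fell by 0.47 ± 0.12 (adjusted p = 0.0114), from 3.79 ± 0.24 (SD, n = 5) to 3.32 ± 0.17. Of all probe sets 1.63% were called lower in that depot. Arrays of ETFB read 3.01 and then 3.40 in the other 4 at 28 days, all below the lowest value at 7 days, 3.46. The call ended without EpC_C_1W_35_130 of 7 days or EpC_C_4W_04_155 of 28 days (adjusted p up to 0.0597) and in a fit of the 2 epicardial groups alone (0.112). ACADVL changed by -0.52 (adjusted p = 0.0774), DECR1 by -0.52 (0.218), ACAT1 by -0.38 (0.194) and ACAA2 by 0.05 (95% interval -0.14 to 0.25, adjusted p = 0.927), and of these ACADVL passed after quantile normalization (-0.64, 0.0285) and centring (-0.62, 0.029).

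In omental fat none of the 5 genes was called by limma, where 14.6% of all probe sets were called in either direction, and 1 of 5 had an unadjusted p under 0.05. ACADVL changed by -0.40 (95% interval -0.76 to -0.04, adjusted p = 0.134), DECR1 by -0.23 (-0.69 to 0.23, 0.602) and ACAT1 by -0.21 (-0.54 to 0.12, 0.466). Normalization mattered here, since the median change of all probe sets was 0.06 as deposited and -0.24 after centring. After quantile normalization ACADVL was at -0.78 (adjusted p = 0.00365) and ACAT1 at -0.57 (0.0157). After centring ACADVL, ACAT1, DECR1 and ACAA2 were called, the last at -0.24 (0.043), which is about the median change itself. Most probe sets called after centring were lower as well, as counted at the end of the text. ETFB and ACAA2 were slightly higher at 28 days in omental and subcutaneous fat as deposited, and lower after quantile normalization or centring, so no direction is given for them.

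The size of the change with age itself differed between depots for 2 of the 5 genes by the F test of the interaction, ACADVL (F = 4.94, adjusted p = 0.0323) and ETFB (F = 5.06, adjusted p = 0.0297), where 9.17% of all probe sets did. DECR1 was at 0.0543, ACAA2 at 0.351 and ACAT1 at 0.527. Neither call held after quantile normalization, with 0.268 for ACADVL and 0.209 for ETFB, or without the CKM-positive arrays, with 0.195 and 0.141. After centring ETFB was at 0.0267 and ACADVL at 0.0893. As deposited, a fit of only the probe sets averaging at least 4, which leaves out ETFB, called 727 of 1752. ACADVL also missed the threshold without sternal array St_C_1W_82_109 of 7 days or St_C_4W_42_146 or St_C_4W_44_155 of 28 days (up to 0.0633), and DECR1 passed without any of 8 arrays (down to 0.0248), which were OM_C_1W_99_122, St_C_1W_82_109 and Su_C_1W_108_105 of 7 days and EpC_C_4W_04_155, EpC_C_4W_05_159, St_C_4W_43_153, Su_C_4W_21_136 and Su_C_4W_25_155 of 28 days.

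No single contrast of the perirenal change with that of another depot passed for any of the 5 genes by limma, with 0.224% of all probe sets called against epicardial, 3.60% against omental, 1.40% against sternal and 2.03% against subcutaneous fat. At an unadjusted p under 0.05 there were 1, 2, 1 and 2 genes. The nearest was ETFB, whose perirenal decrease exceeded the omental change by 0.56 (a difference of -0.56, 95% interval -0.90 to -0.22, adjusted p = 0.0526) and the subcutaneous one by as much (-0.56, -0.91 to -0.21, 0.0823). Next came ACADVL, whose perirenal decrease exceeded the omental one (a difference of -0.73, 95% interval -1.24 to -0.22, adjusted p = 0.1). The sternal decrease of DECR1 exceeded the perirenal one by 0.95 (0.30 to 1.60, adjusted p = 0.141). The brown adipocyte genes, most of which averaged below 3, fell in their sum from 28.5 to 32.3 to 24.1 to 25.5 in perirenal fat and from 26.9 to 28.2 to 22.5 to 27.0 in sternal fat. In epicardial fat they went from 26.6 to 29.1 to 23.7 to 26.1, in omental fat from 22.01 to 25.7 to 22.5 to 23.1, and in subcutaneous fat the other way, from 23.6 to 24.8 to 24.3 to 27.8. The fibroblast and matrix genes were higher in their sum at 28 days in sternal fat (53.8 to 59.4, then 62.3 to 70.5) and epicardial fat (56.7 to 60.4, then 62.7 to 65.1), with no overlap of the ages. They overlapped in subcutaneous fat (61.9 to 67.4, then 67.2 to 72.4), omental fat (61.4 to 66.5, then 63.8 to 69.2) and perirenal fat (52.4 to 59.7, then 53.7 to 61.9). The part of these lists in the changes with age was not tested.

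**Figure D4:**
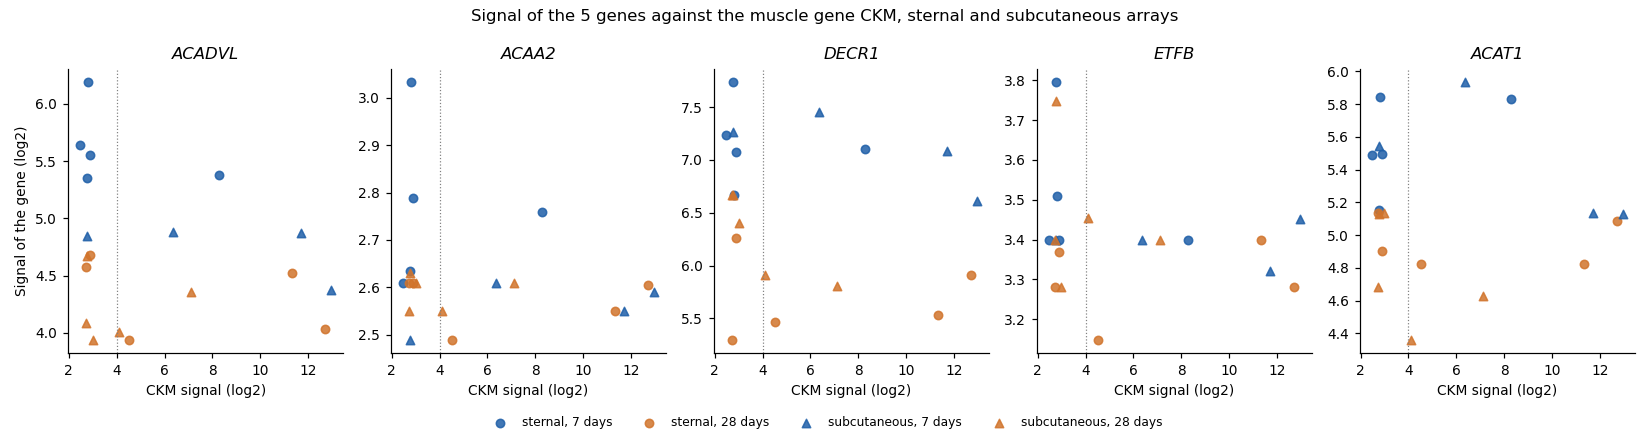
Log2 signal of each gene (vertical axes, which differ) against that of the muscle gene CKM in the 19 sternal (circles) and subcutaneous (triangles) arrays at 7 days (blue) and 28 days (orange), with a dotted line at a CKM signal of 4. The lowest ACADVL of subcutaneous fat at 7 days, 4.37, belongs to the array with the highest CKM, 12.9.

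Within these groups the arrays with muscle RNA did not sit on 1 side for all genes. In sternal fat at 28 days ACADVL read 4.03, 3.94 and 4.52 in the CKM-positive arrays St_C_4W_42_146, St_C_4W_44_155 and St_C_4W_45_159, and 4.58 and 4.68 in the other 2. DECR1 read 5.91, 5.47 and 5.53 in the former and 5.29 and 6.26 in the latter. In subcutaneous fat at 7 days ACADVL was lowest, at 4.37, in Su_C_1W_108_105, which held 12 of the 17 skeletal muscle genes above 4, and read 4.84 in Su_C_1W_110_126, the only array of that group that was not CKM-positive.

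Across the 49 arrays the 5 genes moved together to different degrees. Pearson's r was 0.72 for ACAT1 and DECR1, 0.68 for ACADVL and ETFB and 0.63 for ACADVL and ACAT1, and lowest, at 0.27, for ACAA2 and ETFB. After each array was set against its group mean, r was 0.51 for ACAT1 and DECR1 and 0.49 for ACADVL and ETFB. These values describe arrays that share depots, lambs and normalization, and no p is given.

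The probe sets most like each gene over the 49 arrays were taken among the 1668 or 1669 others with a symbol that average at least 4. ACADVL went most closely with HINT2 (r = 0.89), UQCRC1 (0.84) and VDAC2 (0.83), of which UQCRC1 is a core protein of respiratory complex III and VDAC2 a channel of the outer mitochondrial membrane. DECR1 went with HSD17B10 (0.83), HACL1 (0.83) and CHPT1 (0.82), and ACAT1 with COX6A1 (0.77), HSD17B10 (0.77) and CHPT1 (0.77). ETFB went with PAM16 (0.70), SUCLG1 (0.69) and BLOC1S1 (0.69). ACAA2, near the lowest signal, reached 0.61 with PDK4, a kinase that switches off pyruvate dehydrogenase, and 0.57 with AMMECR1L and DHRS7.

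A wider list of mitochondrial fatty acid oxidation genes held 25 beside ACADVL, ACAA2, DECR1 and ETFB, and 11 of the 25 had a probe set. Among these 11, called changes with age numbered 4 decreases in sternal fat, 3 in perirenal fat, 2 in epicardial fat, 2 in omental fat and 1 in subcutaneous fat, with 1 increase, of ACAD10, in subcutaneous fat (0.21 ± 0.05, adjusted p = 0.00923, and 0.01 after centring), where 7.68% of all probe sets were called higher. The median change of the 11 was -0.19 in sternal and perirenal fat, -0.12 in epicardial, 0.04 in omental and 0.01 in subcutaneous fat, beside medians of all probe sets of -0.00, 0.01, 0.02, 0.06 and 0.05. Of the list's 15 measured genes, ACADVL, ACAA2, DECR1 and ETFB included, 7 averaged below 3, near the lowest signal. These medians and counts say little about such genes.

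HSD17B10, a dehydrogenase of mitochondrial fatty acid and isoleucine breakdown, fell by 1.94 ± 0.24 in sternal fat (adjusted p = 2.76e-07), from 10.6 ± 0.19 (SD, n = 5) to 8.66 ± 0.40, and by 1.22 ± 0.24 in perirenal fat (adjusted p = 0.000499). It fell by 0.92 in epicardial (adjusted p = 0.0158) and 0.95 in omental fat (adjusted p = 0.00548), where 1.03% of all probe sets were called lower. ETFA, the partner subunit of ETFB, fell in all 5 depots, from 0.52 ± 0.18 in omental fat (adjusted p = 0.0383) to 0.89 ± 0.18 in sternal fat (adjusted p = 0.000551). HADHA, part of the trifunctional protein that follows ACADVL in the oxidation of long chains, fell by 1.03 ± 0.21 in sternal (adjusted p = 0.000647) and 0.71 ± 0.21 in perirenal fat (adjusted p = 0.0196). CPT1A, which passes long-chain fatty acids to carnitine for import, fell by 0.29 ± 0.09 in sternal fat (adjusted p = 0.044, but 0.165 after centring and 0.649 without the CKM-positive arrays). Between depots, HSD17B10 was the only other gene of the list called at 7 days, and perirenal exceeded epicardial fat by 1.39 ± 0.24 (adjusted p = 0.00172) and subcutaneous fat by 1.06 ± 0.26 (adjusted p = 0.021, a call that ended without the CKM-positive arrays, which left 1 subcutaneous array). In HSD17B10 epicardial fat was also below omental (-0.86 ± 0.24, adjusted p = 0.0476) and sternal fat (-1.13 ± 0.24, adjusted p = 0.00815).

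**Figure D5:**
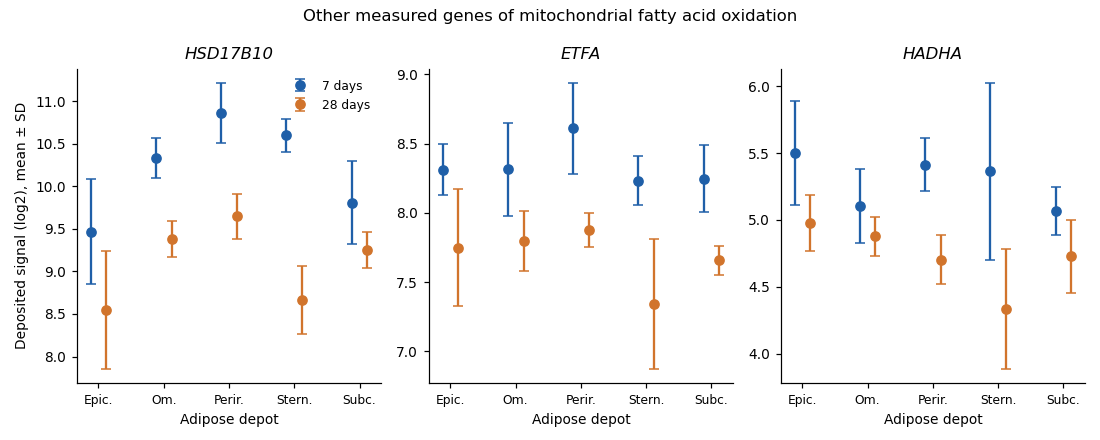
Mean log2 signal and SD of HSD17B10, ETFA and HADHA by depot (horizontal axis, from left to right epicardial, omental, perirenal, sternal and subcutaneous) and age (blue 7 days, orange 28 days), n = 5 arrays per group and 4 for subcutaneous fat at 7 days. HSD17B10 in sternal fat stands at 10.6 at 7 days and 8.66 at 28 days.

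In the list of ketone body and branched-chain amino acid breakdown, to which ACAT1 belongs, 10 other genes were measured. Of the 11 with ACAT1, 6 averaged below 3. HIBADH, of valine breakdown, fell by 1.29 ± 0.26 (adjusted p = 0.000797) and MCEE, of propionyl-CoA breakdown, by 0.67 ± 0.17 (0.00686) in sternal fat, and MCEE fell by 0.84 ± 0.17 (0.000399) in perirenal fat. Without the CKM-positive arrays the sternal changes of HIBADH and MCEE had an adjusted p of 0.136 and 0.0813. No other gene of that list was called for its change with age, and none was called between depots at 7 days. Of 9 measured peroxisomal genes, 7 averaged below 3. HSD17B4, the multifunctional enzyme of peroxisomal beta-oxidation, fell by 0.42 ± 0.12 in sternal fat (adjusted p = 0.0178) and had an adjusted p of 0.479 without the CKM-positive arrays. ABCD3, a peroxisomal fatty acid carrier, rose by 0.78 ± 0.13 in omental fat (adjusted p = 3.42e-05). ACOT8 and ACAA1 were called higher at 28 days in subcutaneous fat (0.48 and 0.36), but not after quantile normalization (adjusted p = 0.194 and 0.0558) or centring (0.129 and 0.197).

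Of 13 measured genes of fatty acid uptake and activation, 9 averaged below 3. ABHD5, the activator of the lipase that opens triglyceride breakdown, fell by 1.18 ± 0.21 in sternal (adjusted p = 0.000122) and 0.73 ± 0.21 in perirenal fat (adjusted p = 0.0182), and it was 1.00 ± 0.25 higher in perirenal than in epicardial fat at 7 days (adjusted p = 0.0302). Sternal fat exceeded epicardial fat in ABHD5 at 7 days as well (epicardial minus sternal -0.93 ± 0.25, adjusted p = 0.0358). SLC27A2, a fatty acid transport protein with acyl-CoA synthetase activity, fell by 0.67 ± 0.16 in perirenal fat (adjusted p = 0.00399). LPL, the lipase that frees fatty acids from circulating lipoproteins, fell by 0.46 ± 0.15 in omental fat (adjusted p = 0.036, and 0.0663 without the CKM-positive arrays). CD36, the fatty acid carrier of the plasma membrane, was 1.00 ± 0.19 higher in perirenal than in epicardial fat at 7 days (adjusted p = 0.00307) and 0.89 ± 0.20 higher at 28 days (adjusted p = 0.0175). Epicardial fat was also below omental, sternal and subcutaneous fat in CD36 at 7 days (-0.83, -0.98 and -0.99, adjusted p = 0.0114, 0.003 and 0.00804). At 28 days perirenal fat also exceeded sternal and subcutaneous fat (0.87 and 0.83, adjusted p = 0.00607 and 0.028). Epicardial minus omental fat was -0.85 then (adjusted p = 0.02).

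Of 14 measured regulators, 9 averaged below 3. Among the 14, 5 decreases and 1 increase with age were called in perirenal fat, beside 3.09% of the table that fell and 6.23% that rose. Decreases numbered 3 in sternal, 3 in epicardial and 2 in subcutaneous fat, where 3.89%, 1.63% and 1.57% were called lower. Omental fat had 2 increases and no decrease, where 13.5% were called higher. These were of PDK4 (0.68 ± 0.17, adjusted p = 0.00316, and 0.304 after quantile normalization) and of PPARG, the nuclear receptor that drives adipocyte formation (0.31 ± 0.10, adjusted p = 0.0234, and 0.492 after quantile normalization and 0.95 after centring). PPARGC1A, the coactivator PGC-1alpha that drives mitochondrial genes, fell by 3.06 ± 0.33 in sternal fat (adjusted p = 1.29e-08), from 6.29 ± 0.74 (SD, n = 5) to 3.23 ± 0.27, and by 2.44 ± 0.33 in perirenal fat (adjusted p = 1.24e-06), from 6.53 ± 0.34 to 4.09 ± 0.52. ESRRA, a nuclear receptor that works with it, fell by 1.11 ± 0.14 in perirenal fat (adjusted p = 1.68e-07) and by 0.44 ± 0.14 in sternal fat (0.0393, and 0.141 after quantile normalization). PPARGC1B, a coactivator related to PPARGC1A, fell by 0.99 ± 0.25 in perirenal fat (adjusted p = 0.00685), 0.97 ± 0.25 in sternal fat (0.0109, and 0.0564 without the CKM-positive arrays) and 0.99 ± 0.27 in subcutaneous fat (0.0122). PDK4 fell by 0.51 ± 0.17 in perirenal fat (adjusted p = 0.0405), against its increase in omental fat. At 7 days PPARGC1A was 3.34 ± 0.31 higher in perirenal than in omental fat (adjusted p = 2.9e-06) and 2.998 ± 0.32 higher than in subcutaneous fat (adjusted p = 3.8e-05). ESRRA was 0.96 and 0.92 higher in the same pairs (adjusted p = 0.00186 and 0.00503, the second at 0.269 without the CKM-positive arrays), and PPARGC1B 0.95 higher than in omental fat (0.00159). PDK4 was 0.82 and 0.74 higher in these pairs (adjusted p = 0.00878 and 0.0259), but at 0.0796 and 0.0948 after quantile normalization. NRIP1, a corepressor of nuclear receptors, was lower in perirenal than in subcutaneous fat (a difference of -0.58 ± 0.13, adjusted p = 0.0096), but by -0.11 (adjusted p = 1) without the CKM-positive arrays. PPARGC1A in epicardial fat stood at 6.73 ± 0.43 at 7 days and 5.48 ± 0.98 at 28 days, a decrease of 1.25 ± 0.33 (adjusted p = 0.0154).

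At 7 days the largest called differences of the regulator list were those of ESRRG, a nuclear receptor related to ESRRA that is known from heart muscle. It stood at 7.32 ± 0.80 (SD, n = 5) in epicardial fat, 3.32 ± 0.49 in perirenal, 3.14 ± 0.27 in sternal and 3.16 ± 0.57 in omental fat, and 3.88 ± 1.85 (n = 4) in subcutaneous fat. Perirenal minus epicardial fat was -4.00 ± 0.54 (adjusted p = 0.000103), and epicardial fat was 4.16 ± 0.54 above omental (adjusted p = 5.45e-05), 4.18 ± 0.54 above sternal (5.44e-05) and 3.44 ± 0.57 above subcutaneous fat (0.00129). ESRRG fell by 1.73 ± 0.54 in epicardial fat between the ages (adjusted p = 0.0485), to 5.59 ± 1.51. The 13 measured cardiac muscle genes summed to 80.1 to 100.9 in epicardial fat at 7 days and 37.4 to 99.4 at 28 days. At 7 days they summed to 36.0 to 37.4 in omental and perirenal, 36.1 to 45.03 in sternal and 37.1 to 83.8 in subcutaneous fat. The highest subcutaneous sum, in the CKM-positive array Su_C_1W_108_105, thus reached into the epicardial range. The part of the cardiac muscle genes in the ESRRG differences was not tested.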

How the data were processed

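RNA of 49 sheep adipose samples was hybridised by the authors to arrays with probe sets for human genes. The deposited values are log2 signals that, per the submitters' processing notes, were made with GCRMA and the affy package, with versions not stated there or in the methods. They were used as deposited, with no filter, and a signal near the lowest value of the table says little about expression. Genes were named from the platform annotation, in which 9780 probe sets carry 1 symbol, 6 several and 487 none.

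Differences were tested with limma 3.58.1 in R 4.3.3, in 1 fit per age over the 5 depots (F test and 10 pairs) and 1 fit over the 10 groups (28 minus 7 days in each depot, the difference of these changes between depots and the F test of the interaction). P-values were adjusted over all 10273 probe sets by Benjamini and Hochberg and called at 0.05. Each ± of a difference is its standard error, and 95% intervals are not adjusted. Litter was not part of any fit. Array numbers limit the precision.

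The 5 genes and the lists of other genes were chosen with earlier results of these data known. All 5 were tested in every comparison and, in pairs of depots without a call, are in part given by counts. In the comparisons described for a list, up to 4 called genes with the largest difference were named, and for likeness the 3 probe sets with the highest r, with CKM, UCP1 and PPARGC1A as markers. Alternatives were quantile normalization, centring of each array on its mean over probe sets averaging at least 4, a filter on that mean, array quality weights, a robust trend of the prior variance, the replicate number as a fixed or random block, fits of the 2 groups alone, 1 fit over all groups, removal of the 9 arrays of sternal or subcutaneous fat with CKM above 4, and removal of each array. The scripts were tested on simulated data.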

Additional observations from a re-analysis of the deposited data

Results flagged for a closer look

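Single arrays stood far from the rest of their group in 6 of the 50 combinations of gene, depot and age, by the gap to the nearest array over the range of the group. Values shared between arrays raise this ratio, so no chance rate is set beside these flags. At 7 days ACADVL was low in omental array OM_C_1W_98_115, at 4.48 against 4.87 to 4.95 in the others, and in subcutaneous array Su_C_1W_108_105, at 4.37 against 4.84 to 4.88. ETFB was high in sternal array St_C_1W_84_122, at 3.80 against 3.40 to 3.51. At 28 days ACAA2 was high in epicardial array EpC_C_4W_01_141, at 2.83 against 2.59 to 2.61, and this is the epicardial array in which CKM and MYH7 were low. ETFB was low in epicardial array EpC_C_4W_04_155, at 3.01 against 3.40, and DECR1 was high in omental array OM_C_4W_14_155, at 7.28 against 6.65 to 6.73.

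The change with age differed between depots by the interaction test for ACADVL (F = 4.94) and ETFB (F = 5.06). Neither call held after quantile normalization or without the CKM-positive arrays.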

How the results depend on the processing

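Over 38 results given as single tests (15 to 38 per alternative), quantile normalization kept the direction and side of the threshold in 26 of 38, centring in 29 of 38, array quality weights in 36 of 38, the robust trend in 37 of 38 and removal of the CKM-positive arrays in 19 of 38. The fit over all groups kept 15 of 15 and fits of the 2 groups alone 11 of 23, and the cause of these differences was not tested. No sign turned in these.

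By the F test over depots, 3 of the 5 genes were called at 7 days and 5 after centring. At 28 days 2 were called, 5 after centring and 1 without the CKM-positive arrays. The single arrays left out gave 3 to 4 and 2 to 3. Of 50 gene and pair tests per age, 9 were called at 7 days, 15 after centring, 4 in fits of the 2 depots alone, 14 in 1 fit over all groups and 7 to 11 with single arrays left out. At 28 days 6 were called, 10 with the filter on the mean, 13 after centring, 0 by limma without the CKM-positive arrays (10 at an unadjusted p under 0.05) and 3 to 7 with single arrays left out, 3 without PrR_C_4W_33_153 or Su_C_4W_24_153.

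For the change with age, epicardial fat had 1 called gene, 2 after quantile normalization, centring or quality weights, 0 by limma in a fit of its 2 groups (2 at an unadjusted p under 0.05) and 0 to 1 with single arrays left out. Omental fat had 0, 2 after quantile normalization and 4 after centring. Perirenal fat had 2, 1 with the filter, 4 after centring and 2 to 3 with single arrays left out. Sternal fat had 3, and 2 to 3. Subcutaneous fat had 2, 0 by limma without the CKM-positive arrays or in a fit of its 2 groups (1 and 3 at an unadjusted p under 0.05) and 0 to 3 with single arrays left out. The interaction was called for 2 genes, 0 by limma after quantile normalization or without the CKM-positive arrays (3 and 2 at an unadjusted p under 0.05), 1 after centring and 1 to 3 with single arrays left out.

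With the replicate number as a fixed replicate block, 4 and 3 genes passed the F test at 7 and 28 days, and 7 and 4 pair tests were called. The F tests gained were DECR1 at 7 days (adjusted p = 0.0182) and ACAT1 at 28 days (0.0303), and the pair gained was DECR1 in perirenal minus epicardial fat at 7 days (0.00444). The pairs no longer called under it were ACAA2 in perirenal minus omental (0.0782) and ACADVL in sternal minus omental (0.216) and sternal minus subcutaneous fat (0.107) at 7 days, and ACADVL in epicardial minus sternal (0.0875) and epicardial minus subcutaneous fat (0.0638) at 28 days. As a random replicate block it changed none of 38 calls, but the perirenal minus omental difference of the ETFB change with age came to 0.0496. Same-number arrays of different depots correlated by a median of 0.05 at 7 days and 0.06 at 28 days, with 6 of 33 and 12 of 39 pairs over 0.1. Pairs with different numbers had a median of -0.01 at both ages, over -0.36 to 0.29 and -0.44 to 0.33. The numbers are not defined as animals and did not pair the samples in the main fits. The p-values of those fits therefore leave out any likeness between arrays from the same lamb.

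Centring moved the sizes of all probe sets. At 28 days sternal minus omental fat had 57 higher and 1558 lower calls as deposited, and 6502 and 464 after centring. Perirenal minus sternal fat went from 1325 higher and 74 lower to 400 and 6131, and epicardial minus sternal fat from 1191 and 62 to 422 and 6537. In omental fat the change with age went from 1391 higher and 106 lower to 463 and 5147, in perirenal fat from 640 and 317 to 357 and 997, and in subcutaneous fat from 789 and 161 to 325 and 1623. At 7 days perirenal minus omental fat went from 435 higher and 79 lower to 173 and 335. Changes with age in epicardial fat went from 433 and 167 to 234 and 352, and in sternal fat from 254 and 400 to 337 and 295.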
